A study of Mus musculus with 36 samples.

Results

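The chromatin around 8 genes for interferon-inducible GTPases was followed in mouse bone marrow-derived dendritic cells: the guanylate-binding proteins Gbp2, Gbp3, Gbp5 and Gbp7 and the immunity-related GTPases Irgm1, Irgm2, Igtp and Iigp1. A region belongs to these loci if its deposited peak overlaps the body of a member gene or the 10 kb on either side of it. By that rule, which uses position and no measured value, 62 of the 119751 deposited peaks were members, and 61 of them passed the filter on low counts. The remaining peak, in the body of Gbp2, was too low to be tested. The windows held 20 peaks for Gbp5, 10 for Irgm1, 9 for Gbp2, 9 for Gbp7, 8 for Igtp, 6 for Gbp3, 6 for Irgm2 and 5 for Iigp1, and 11 peaks lay in the windows of 2 genes. Of the 62, 7 covered a start site, 27 lay elsewhere in a gene body and 28 lay in a flank.

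Open DNA was cut and tagged by a transposase and sequenced (ATAC-seq) in cells grown with GM-CSF (15 ng/mL) from the marrow of female C57BL/6J mice aged 6 to 8 weeks. The strain is also labelled C57BL/6. The 36 libraries form 18 groups of 2, all of wild-type cells: an untreated control (Ctrl), 6 single ligands, 8 pairs and 3 triplets, each given for 6 h. The letters P, L and H stand for what the labels call PAM, LPS and HMW, S for SeV, cG for 3',3'-cGAMP and Z for Zymosan depleted. Mixtures are named by their letters, as PL, PH, LH, PS, PcG, ScG, ZS, ZcG, PLH, PScG and ZScG. PAM, HMW and SeV are not spelled out in the labels, and no dose was used here. Nothing in the labels says that the libraries of a group came from separate cultures or animals, so p-values measure the spread between these libraries, which may be technical.

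Guanylate-binding proteins and immunity-related GTPases are among the genes most strongly induced by interferons. Guanylate-binding proteins coat bacteria and pathogen-containing vacuoles and help cytosolic sensors such as inflammasomes reach their ligands. Among the immunity-related GTPases, Iigp1 is an effector that loads onto pathogen vacuoles, whereas Irgm1, Irgm2 and Igtp are regulators that guard the cell's own membranes. Interferon signals reach these genes through factors of the STAT and IRF families, which bind paired GAAA elements (the interferon-stimulated response element) and spaced TTC and GAA elements (the gamma-activated site).

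Outside the mitochondrial genome the libraries held 8181254 to 21985891 counts, and log2 CPM (counts scaled to a library of 1e6 counts) of the 2 libraries of a group correlated at 0.901 to 0.958 across peaks. The mitochondrial genome took 57.3% to 63.1% of all counts in Ctrl, Z, ZcG, ScG and ZScG and 44.1% to 58.1% in the other 13 groups. The labels give no batch, and control is in the set of 5, so for the other 13 groups stimulation and this share move together. All 11 dendritic and myeloid marker genes had a peak at a gene end, as had 4 of 4 macrophage markers. Pax5, Cd79a, Cd3e, Cd3d, Lck, Ly6g, Elane, Gata1, Hbb-b1 and Krt8 had none. Klf1, an erythroid marker, had a peak at a mean of 12.6 CPM, against a median of 8.76 over the dendritic and myeloid marker peaks. Epcam and Col1a1, epithelial and stromal markers, had peaks at means from 1.90 to 3.87 CPM. The summed CPM of the dendritic and myeloid marker peaks was 180 in control and 161 to 197 over the 18 groups. That of the macrophage marker peaks was highest in control, at 134, against 94.7 in the lowest group. That of the 2 neutrophil marker genes with a peak was also highest in control, at 26.5, against 10.9 in the lowest group. The part of cell composition in the results below was not tested, and in bulk chromatin a change in the share of cells and a change in accessibility per cell cannot be told apart.

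Promoter sequences were available from RefSeq (GRCm38.p6) for 7 of the 8 genes. Iigp1 had no entry. Of these, 6 are shown, and Gbp3, which has 2 annotated starts, is left out for length. They are shown because the start-site peaks of these genes cover them and because they share a single motif. Each runs from 250 bases before to 50 bases after the annotated start, 5′ to 3′ on the gene's own strand, and capitals mark a pair of GAAA elements 2 bases apart, which reads as a pair of TTTC elements where it lies on the opposite strand. The windows are chr3:142496684-142496983 (Gbp5), chr3:142530086-142530385 (Gbp7), chr3:142620413-142620712 (Gbp2) and, on chromosome 11, chr11:48871371-48871670 (Irgm1), chr11:58199306-58199605 (Igtp) and chr11:58214727-58215026 (Irgm2). Irgm1 is on the minus strand and the others are on the plus strand.
Gbp5: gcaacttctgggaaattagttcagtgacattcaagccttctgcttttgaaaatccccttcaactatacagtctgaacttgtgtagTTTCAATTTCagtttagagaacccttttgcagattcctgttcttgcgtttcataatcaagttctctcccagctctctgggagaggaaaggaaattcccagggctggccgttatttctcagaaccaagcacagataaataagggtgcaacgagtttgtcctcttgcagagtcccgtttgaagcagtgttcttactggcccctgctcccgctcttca
Gbp7: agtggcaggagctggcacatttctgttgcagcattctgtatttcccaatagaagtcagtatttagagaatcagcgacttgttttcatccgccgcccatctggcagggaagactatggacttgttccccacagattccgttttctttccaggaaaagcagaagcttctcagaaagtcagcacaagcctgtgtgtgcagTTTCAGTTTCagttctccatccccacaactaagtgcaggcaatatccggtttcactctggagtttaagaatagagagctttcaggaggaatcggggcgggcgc
Gbp2: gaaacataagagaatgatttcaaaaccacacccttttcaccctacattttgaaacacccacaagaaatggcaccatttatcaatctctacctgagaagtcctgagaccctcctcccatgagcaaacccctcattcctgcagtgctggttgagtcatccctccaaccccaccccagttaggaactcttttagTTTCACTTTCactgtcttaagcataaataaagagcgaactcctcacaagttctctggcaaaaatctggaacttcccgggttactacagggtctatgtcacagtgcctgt
Irgm1: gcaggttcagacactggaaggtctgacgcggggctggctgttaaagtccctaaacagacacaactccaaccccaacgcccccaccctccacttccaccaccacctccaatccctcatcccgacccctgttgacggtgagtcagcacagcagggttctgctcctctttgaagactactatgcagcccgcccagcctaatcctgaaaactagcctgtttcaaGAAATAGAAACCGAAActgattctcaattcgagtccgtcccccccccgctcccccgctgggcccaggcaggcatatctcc
Igtp: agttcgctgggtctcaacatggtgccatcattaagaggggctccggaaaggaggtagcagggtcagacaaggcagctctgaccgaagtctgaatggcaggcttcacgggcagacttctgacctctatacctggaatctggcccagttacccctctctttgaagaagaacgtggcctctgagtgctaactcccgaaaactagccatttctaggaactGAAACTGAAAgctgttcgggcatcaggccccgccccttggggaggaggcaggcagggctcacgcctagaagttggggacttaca
Irgm2: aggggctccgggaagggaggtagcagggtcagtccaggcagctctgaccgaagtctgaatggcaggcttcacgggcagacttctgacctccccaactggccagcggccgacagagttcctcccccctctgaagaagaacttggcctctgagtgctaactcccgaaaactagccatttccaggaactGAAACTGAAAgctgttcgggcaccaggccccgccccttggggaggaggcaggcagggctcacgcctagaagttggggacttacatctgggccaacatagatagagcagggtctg

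The GAAA pair was found in 7 of 7 genes, counting Gbp3 with 1 of its 2 annotated starts, against 3.44% of 32851 promoter windows of the same length. Its match nearest the start began 24 bases upstream in Irgm1, 34 in Igtp, 39 in Gbp3, 53 in Gbp7, 59 in Gbp2, 64 in Irgm2 and 165 in Gbp5. Gbp3 and Irgm1 had a pair of overlapping matches each. The gamma-activated site TTCNNNGAA was found in 4 of 7 genes, with 2 matches each in Gbp5 and Gbp7 and 1 each in Igtp and Irgm2, against 8.3% of windows. An NF-kB motif (GGG and TTTCC, 2 bases apart) was found only in Gbp5 of the 7 (1.63% of windows), and the AP-1 motif TGANTCA only in Gbp2 and Irgm1 (7.81% of windows). All motifs were searched on both strands, and a match is a description of the letters. The Igtp and Irgm2 promoters were 72.8% identical with a shared run of 61 bases, longer than the 42 cycles of a read, so counts at those 2 start sites could have been exchanged and are uncertain. The other pairs of promoters were 38.6% to 46.6% identical.

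The first question was which stimulations opened the loci. With a single ligand, 33 of the 61 tested peaks were higher than control in cG (54.1%, against 11.6% of all tested peaks higher), 30 in S (49.2%, against 14.1%) and 26 in L (42.6%, against 11.3%). In H 16 were higher (26.2%, against 5.23%). In P 8 were higher (13.1%, against 11.1%), and in Z 8 were higher (13.1%, against 4.16%). The share in P was thus near that of all peaks, whereas in cG, S, L and H it was several times larger. In Z it was also larger than that of all peaks, though it rests on 8 peaks. The median log2 fold change of the members was 1.30 in S, 1.01 in cG, 0.92 in L, 0.70 in H, 0.42 in Z and 0.14 in P, where the median of all peaks lay between -0.04 and 0.03. Lower peaks were few: 3 in P (against 9.41% of all peaks lower), 1 in L (11.1%) and 1 in H (5.44%). S, cG and Z had 0 lower member peaks in edgeR and in DESeq2, and 0 at an unadjusted p under 0.05. Of all tested peaks 27.9% in S, 23.3% in cG and 5.91% in Z were called in either direction. Against the higher shares of 14.1%, 11.6% and 4.16%, few peaks of any kind were thus lower in Z.

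Every mixture opened more of these peaks than P or Z alone. Among pairs, 31 peaks were higher in PS (against 17.3% of all peaks), 30 in PcG (16.8%), 26 in PL (13.8%), 26 in ZS (14.4%) and 25 in LH (11.3%). The other pairs had 23 in ScG (14.4%), 22 in ZcG (11.4%) and 21 in PH (13.6%). Among triplets, 29 were higher in ZScG (16.2%), 27 in PScG (19.0%) and 24 in PLH (14.9%). The highest count in edgeR was thus that of cG alone, but this rank depended on the method. DESeq2 gave 30 in PS and 29 in cG, and scaling by total counts gave 42 in PcG and 38 in cG. Over the mixtures the median change ran from 0.78 in PL to 1.37 in ZScG. A peak was called at an adjusted p under 0.05 in edgeR's quasi-likelihood test.

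The counts moved with single libraries and with the mitochondrial share. Over all tested peaks the share called in either direction was 5.91% in Z, 10.7% in H, 20.5% in P, 22.3% in L, 23.3% in cG and 27.9% in S. In mixtures it was 21.6% in ZcG, 21.8% in LH, 26.4% in PH, 27.3% in PL, 27.7% in ScG, 28.3% in ZS, 29.7% in PLH, 32.3% in ZScG, 33% in PcG, 33.4% in PS and 37.1% in PScG. Without control replicate 1 the calls in either direction fell from 33 to 20 in cG, from 28 to 15 in ZS, from 26 to 17 in LH, from 25 to 14 in ScG, from 23 to 14 in ZcG, from 22 to 13 in PH and from 17 to 10 in H. Without control replicate 2 they fell from 11 to 6 in P and from 8 to 5 in Z. They fell to 11 in H without H replicate 1, to 16 in ZS without ZS replicate 2, to 13 in ZcG without ZcG replicate 2 and from 32 to 21 in ZScG without ZScG replicate 1. With the mitochondrial share added as a term the calls fell to 13 in S, 11 in cG, 8 in H, 6 in L and 3 in P. The shares of all peaks under this term or with a library left out are not given. With that term 17 of 17 calls held at the peak between Gbp5 and Gbp7 described below, 15 of 17 at the Gbp5 start, 5 of 13 at the Gbp2 start, 3 of 13 at the Gbp7 start and 3 of 14 at the Irgm1 start. Within the 5 groups of high share, which include control, the calls in Z, ScG, ZcG and ZScG given above compare groups of like share.

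**Figure D1:**
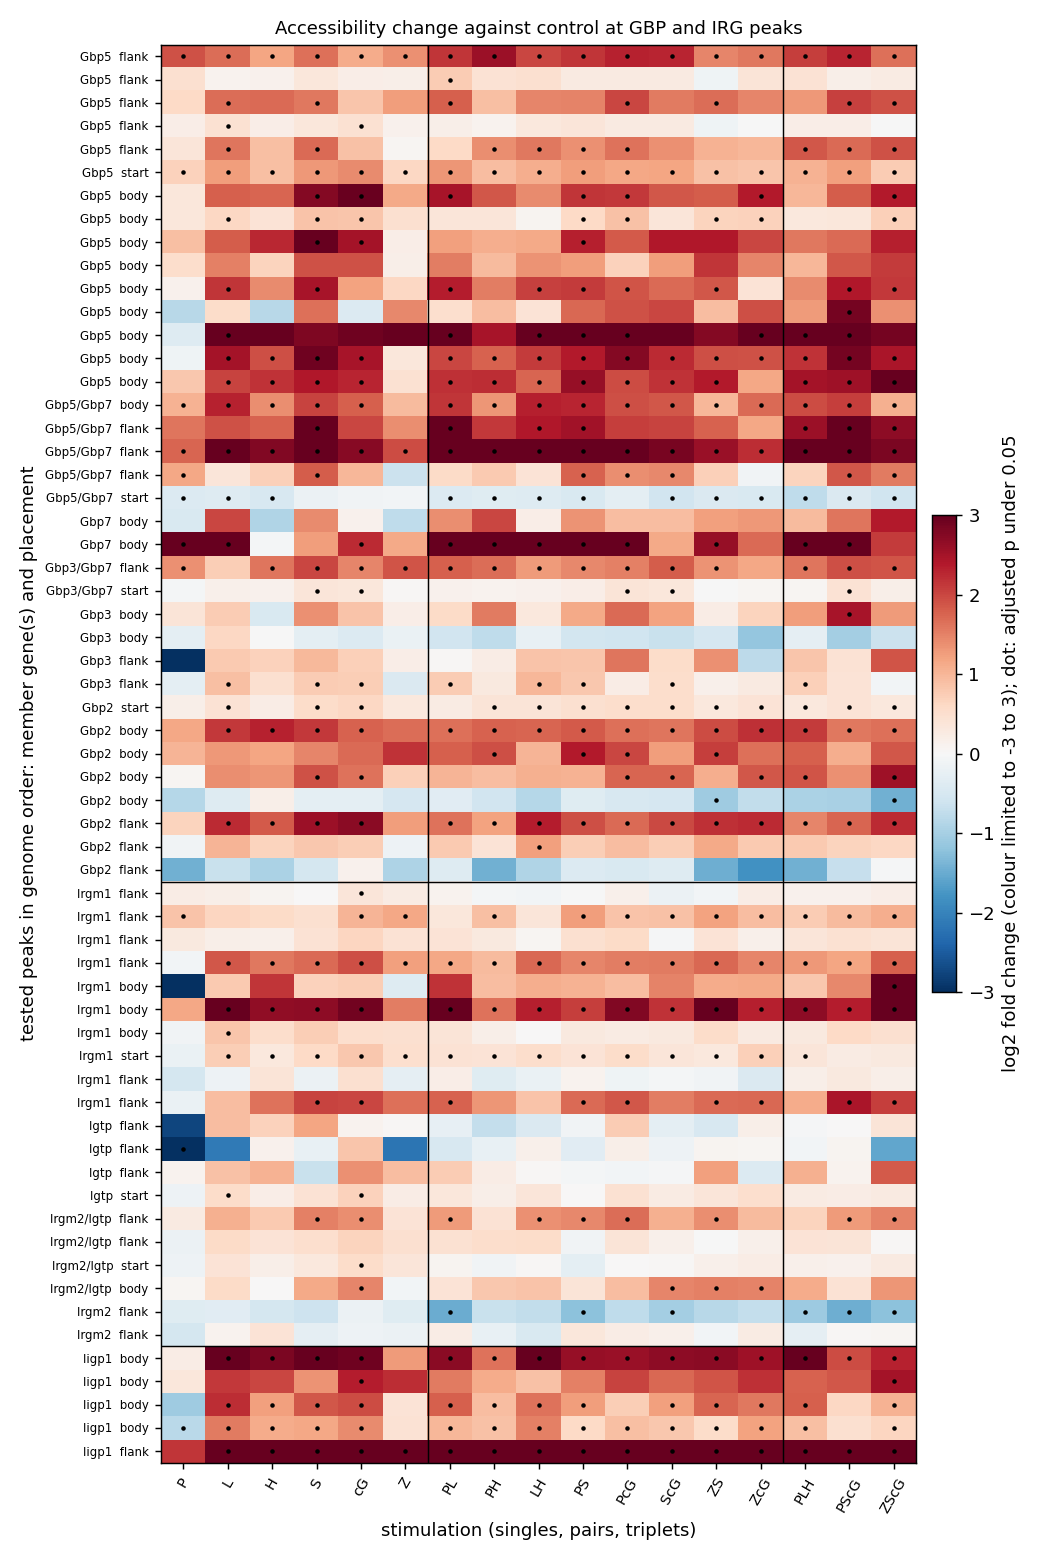
Heat map of the fitted log2 fold change against control for the 61 tested peaks (rows, in genome order, grouped by gene window) in the 17 stimulations (columns: singles, pairs, triplets). Dots mark calls at an adjusted p under 0.05. The P column holds 8 higher and 3 lower peaks, while the S and cG columns hold 30 and 33 higher and 0 lower.

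Start sites changed by smaller folds than the other peaks, but the counts of calls did not show this. The peak list is that of the whole series, so a peak nearly closed in control can be a member through stimulations that opened it. It can pass the filter on low counts in the same way. The peak past the Iigp1 end had 2 counts in control, and the Gbp7 body peak had 3. How far this raises the folds away from start sites was not tested. The median log2 fold change over the 7 start-site peaks was -0.14 in P, 0.44 in L, 0.44 in S and 0.61 in cG. Over the 54 other peaks it was 0.21 in P, 1.05 in L, 1.43 in S and 1.16 in cG. By calls, 6 of 7 start sites were higher in cG against 27 of 54 other peaks, 4 of 7 against 26 in S, 4 of 7 against 22 in L, 2 of 7 against 14 in H, 2 of 7 against 6 in Z and 1 of 7 against 7 in P. Start sites were among the most open places: Irgm1, Gbp7, Gbp3, Gbp2 and Gbp5 had a mean level of 17.9, 17.5, 17.1, 15.0 and 13.7 CPM per kb of peak, and Igtp and Irgm2 had 11.9 and 11.8. Across the 17 stimulations 3 peaks were higher in all, 6 in at least 16 and 19 in at least 10, while 11 were never called. A total of 46 peaks were higher in at least 1 stimulation and 5 were lower in at least 1. The matching counts over all tested peaks are not given, so whether this breadth is particular to these loci was not tested. Low levels limit what could be seen, since 17 peaks had a mean level under 1 CPM. Of the 11 peaks that were never called, 7 were among them.

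Gbp5, which promotes inflammasome responses, had the start site that changed most. Its peak (chr3:142496036-142497834) held 11.5 and 12.7 CPM in the control libraries. The single ligands gave 21.8 and 17.3 CPM in P, 26.9 and 30.4 in L, 21.5 and 24.2 in H, 32.1 and 27.7 in S, 26.0 and 39.1 in cG, and 18.5 and 18.6 in Z. All libraries of the 17 stimulations were above both control libraries. The log2 fold change was 0.69 (SE 0.158, adjusted p = 3.78e-04) in P, 1.24 (SE 0.152, adjusted p = 1.05e-11) in L, 1.30 (SE 0.151) in S and 1.43 (SE 0.152, adjusted p = 1.29e-14) in cG, the last being 2.69-fold. It was called in 17 of 17 stimulations. The calls in Z and ZScG were lost without a library: Z without control replicate 1 (log2 0.54, adjusted p = 0.14), Z replicate 1 (0.61) or Z replicate 2 (0.61), and ZScG without ZScG replicate 1 (0.34, adjusted p = 0.25). In order of level the groups formed a continuum, with 14 of 17 neighbouring groups overlapping.

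The widest change in the guanylate-binding protein cluster lay between genes. A peak past the end of Gbp5 and 5658 bases upstream of the Gbp7 start (chr3:142523518-142525839) rose from 1.64 and 1.45 CPM in control. Among the singles it held 4.28 and 6.07 CPM in P, 19.1 and 16.1 in L, 11.4 and 9.48 in H, 19.3 and 15.6 in S, 11.1 and 9.53 in cG, and 6.43 and 5.66 in Z. Pairs gave 35.0 and 20.1 in PL, 12.2 and 20.1 in PH, 27.7 and 33.8 in LH, 23.6 and 18.4 in PS, 14.1 and 17.7 in PcG, 12.4 and 9.95 in ScG, 10.1 and 8.48 in ZS, and 6.64 and 7.57 in ZcG. Every stimulated library was above both control libraries, P and Z were the lowest stimulations, and LH and PL were the highest. Triplets lay between, at 16.2 and 16.5 in PLH, 12.0 and 19.1 in PScG, and 9.94 and 12.1 in ZScG. The log2 fold change ran from 1.75 (SE 0.354, adjusted p = 1.16e-04) in P to 4.31 (SE 0.285, adjusted p = 6.52e-20) in LH, which is 19.8-fold. All 17 calls held with each library left out and with the mitochondrial share as a term.

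**Figure D2:**
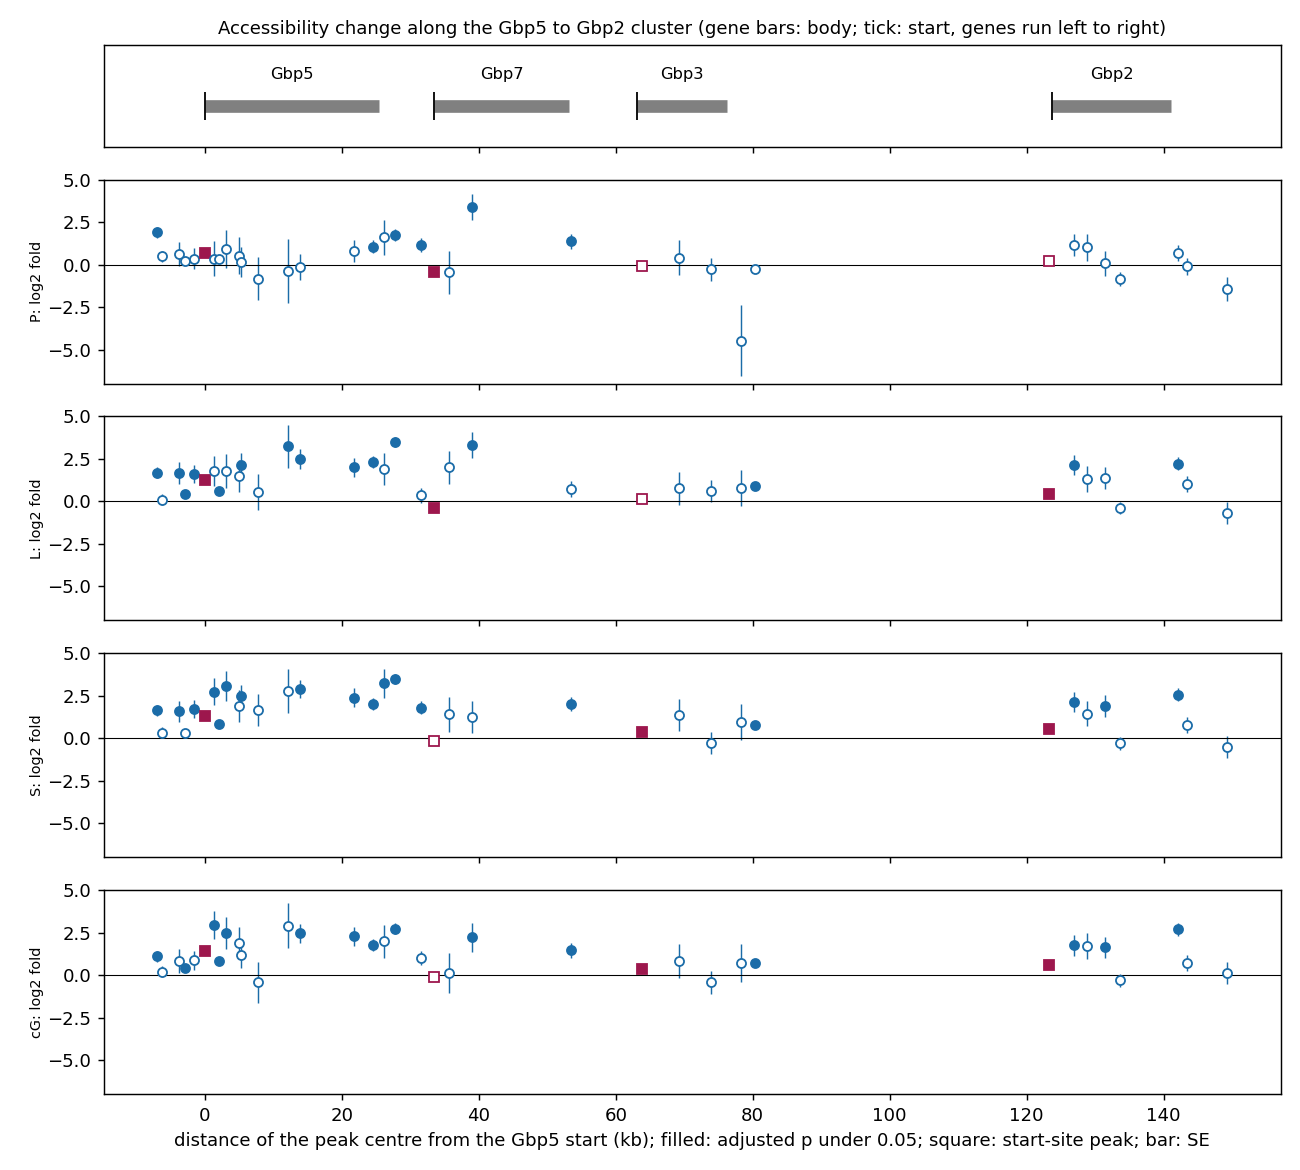
Fitted log2 fold change against control (vertical axis) of the 36 tested peaks around Gbp5, Gbp7, Gbp3 and Gbp2, by distance along chromosome 3 (horizontal axis, kb), in P, L, S and cG. Filled points passed the test and gene bodies are drawn as bars. In L and S the highest point sits between Gbp5 and Gbp7, where the change is 3.50 in each.

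A flank peak 6930 bases upstream of Gbp5 (chr3:142489630-142490378) also rose in 17 of 17 stimulations, and P was not among the weakest there. It went from 1.64 and 1.74 CPM in control to 5.12 and 7.51 in P and to 11.5 and 8.76 in PH. Its lowest stimulation was cG, at 3.58 and 3.73 CPM. The log2 fold change was 1.90 (SE 0.318, adjusted p = 4.82e-07) in P, 1.11 (SE 0.341) in cG and 2.57 (SE 0.302) in PH. It was picked after its values were seen, for the number of stimulations that opened it, and 14 of its 17 calls held with each library left out. Those in H, cG and Z were each lost without control replicate 1, control replicate 2 or, for H and cG, a replicate of the group (H replicate 1, cG replicate 2), at 1.07 to 1.41. In the whole Gbp5 window 14 of 20 tested peaks were higher in S, 12 in L, 10 in cG, 6 in H, 5 in P and 3 in Z, where the shares of all tested peaks were 14.1%, 11.3%, 11.6%, 5.23%, 11.1% and 4.16%.

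Gbp7, a partner in oxidative and vacuolar defence, had a body peak that was high with P or L and a start site that was called lower in many stimulations, with nearly all of these calls lost without control replicate 1. The body peak (chr3:142535721-142536124) had 3 counts in control, at 0.218 and 0.0965 CPM. It held 2.37 and 1.08 CPM in P and 1.70 and 1.56 in L, but 0.127 and 0.172 in H, 0.327 and 0.430 in S, and 0.372 and 0.328 in ScG. Mixtures with P were all high, at 2.11 and 3.48 CPM in PH, 2.19 and 2.06 in PS, 2.85 and 2.23 in PcG, and 2.33 and 1.49 in PScG. P and L, with every mixture holding P or L, lay at or above 1.08 CPM, and no library of H, S, Z, ScG or ZcG reached that level. Because control had so few counts, its ratios to control are wide: 11.1 (95% counting interval 3.57 to 55.9) in P, 10.5 (3.42 to 52.8) in L, 18.5 (6.15 to 91.5) in PH, 0.952 (0.161 to 6.5) in H and 2.48 (0.668 to 13.7) in S. The test called 11 stimulations, among them P (log2 3.40, SE 0.764, adjusted p = 2.42e-04), L and all mixtures with P or L, whereas H (adjusted p = 0.98), S (0.34), Z (0.61), ScG (0.44), ZcG (0.21) and ZScG (0.071) missed the threshold. The call in cG (2.24, SE 0.858) was lost without cG replicate 1 (0.86, adjusted p = 0.68) or either control replicate (2.87 and 1.76), and that in ZS (2.62) was lost without control replicate 2 (2.14) or ZS replicate 1 (2.51).

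The Gbp7 start-site peak (chr3:142529789-142531119) had 35.9 and 24.4 CPM in control. It held 23.4 and 21.7 CPM in P, 20.2 and 25.4 in L, 27.5 and 25.5 in S, and 16.9 and 18.8 in PLH. The control libraries differed from each other more than most stimulations differed from the lower of them. The test called it lower in 13 stimulations, from -0.36 (SE 0.131) in PH to -0.75 (SE 0.135, adjusted p = 1.75e-06) in PLH. Only the call in PLH held with each library left out: without control replicate 1 the change was -0.12 (adjusted p = 0.71) in P, -0.09 in L and -0.31 (adjusted p = 0.19) in ZScG. Scaling by total counts left 4 of the 13 calls and turned the direction in L to 0.04.

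Gbp3 and Gbp2, both vacuole-targeting members of the family, had open start sites that moved by less. The Gbp2 peak (chr3:142618479-142622055), which also reaches the end of its neighbour Gbp2b, held 42.2 and 40.8 CPM in control, 54.7 and 57.9 in L, 61.2 and 59.8 in S, and 60.4 and 66.1 in cG. All stimulated libraries were above both control libraries. It was called in 13 of 17 stimulations, with 0.44 (SE 0.102, adjusted p = 3.56e-04) in L and 0.61 (SE 0.102, adjusted p = 4.49e-07) in cG, and missed the threshold in P (0.18), H (0.22), Z (0.32) and PL (0.25). The calls in ZS, PLH, ZScG (0.31 each) and ZcG (0.41) did not hold with every library left out. They were lost, at 0.26 to 0.33, without control replicate 2 in ZS, PLH and ZScG, control replicate 1 in ZS, or a replicate of the group (either one of ZS, ZcG replicate 1, PLH replicate 2, ZScG replicate 2).

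Beyond its start, Gbp2 had peaks that moved in both directions. A flank peak past the end (chr3:142638440-142639638), chosen after its values were seen, went from 1.09 and 0.965 CPM in control to 6.76 and 6.66 in cG, a change of 2.70 (SE 0.397, adjusted p = 8.7e-09). It rose in 15 of 17 stimulations and did not pass the test in P or Z. Its calls in PH, PLH and PScG were lost, at 0.94 to 1.37, without control replicate 2 (PH, PLH), control replicate 1 or either replicate of PH, or PScG replicate 2. A body peak 9906 bases from the start (chr3:142630336-142630802) was lower, at 3.39 and 3.28 CPM in control and 1.56 and 0.827 in ZScG (-1.44, SE 0.459). It passed the test in ZS (-1.06) and ZScG only, and neither call held with each library left out. The call in ZScG was lost without ZScG replicate 2 (-1.09, adjusted p = 0.13), and that in ZS without any one of its 4 libraries (both control and both ZS replicates), at -0.86 to -1.26. The Gbp3 start-site peak (chr3:142559501-142562036) held 39.2 and 37.8 CPM in control, 51.7 and 48.0 in S, and 45.8 and 58.1 in PScG. It was called in S (0.37), cG (0.35), PcG (0.38), ScG (0.35) and PScG (0.44, SE 0.112), and none of the 5 calls held with each library left out. Control replicate 2 ended those in S, cG and ScG, and 1 replicate of the group itself (S 1, cG 2, ScG 1, PcG 1, PScG 2) ended each, with values of 0.21 to 0.35.

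**Figure D3:**
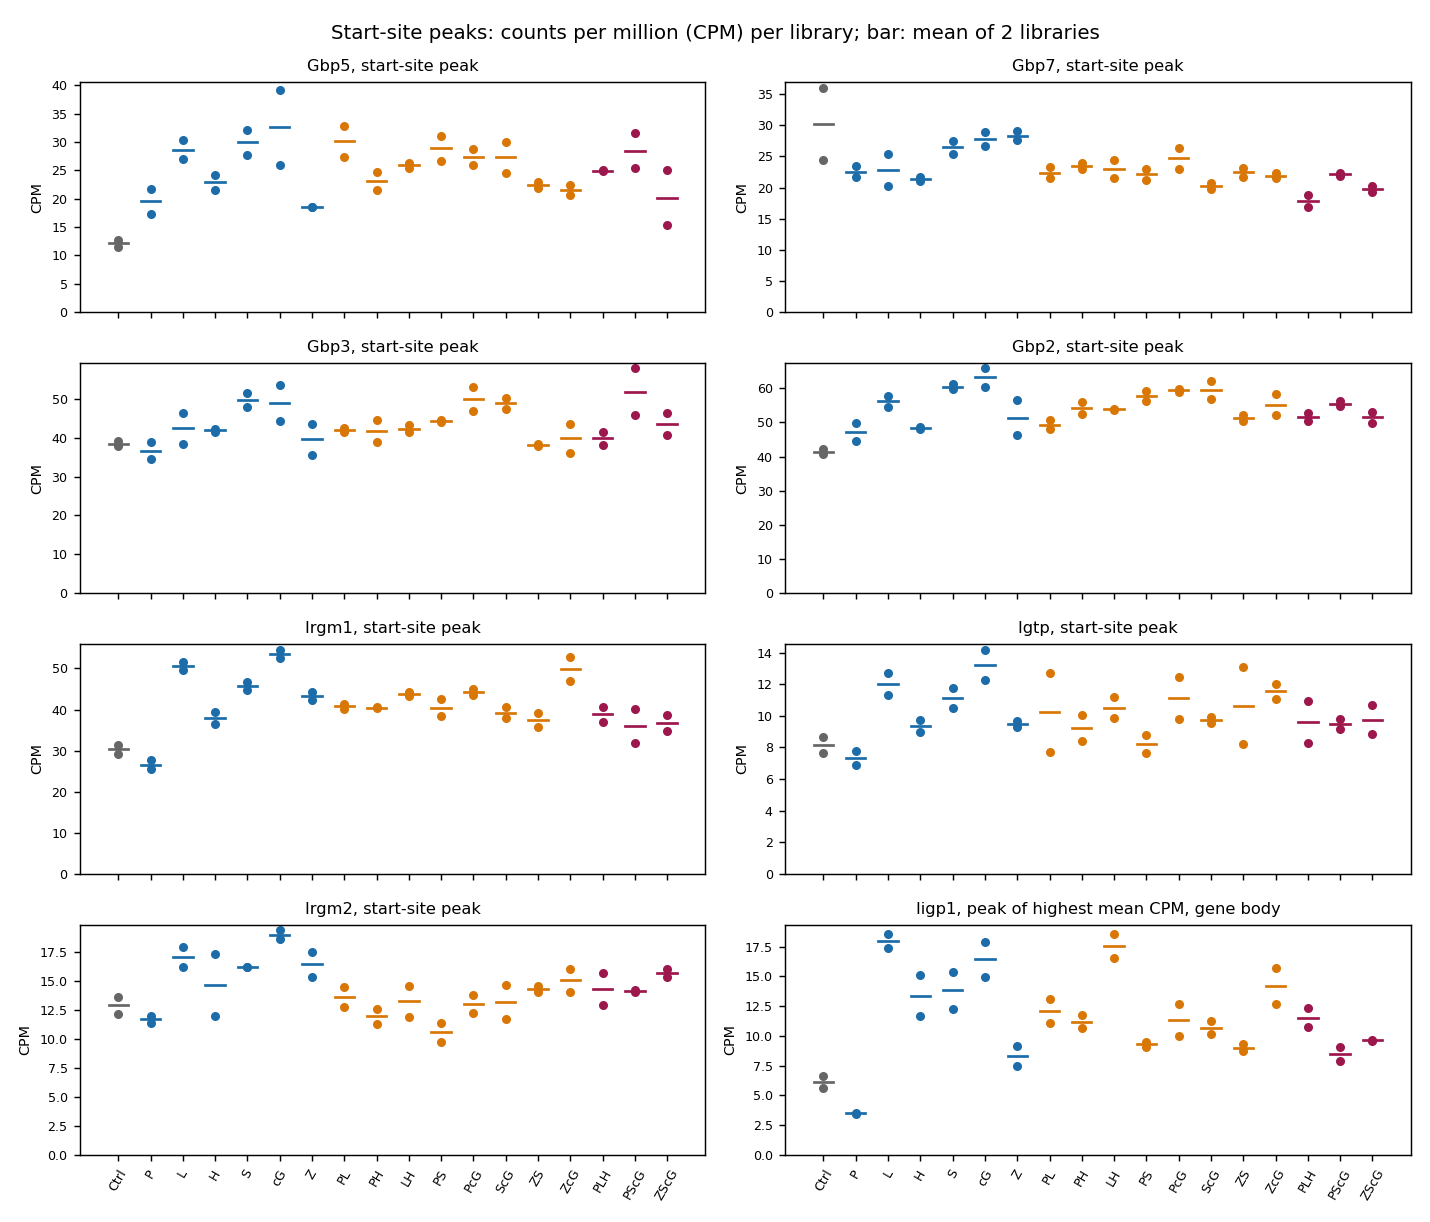
CPM of each library (points) and the mean of the 2 libraries (bars) in 18 groups for the start-site peaks of 7 genes and the highest peak of Iigp1. Gbp5 has every stimulated library above its controls, which lie at 11.5 and 12.7 CPM, and Gbp7 reaches 35.9 CPM in control replicate 1.

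Among the immunity-related GTPases, Irgm1, a regulator tied to autophagy, had the most responsive start site. Its peak (chr11:48870737-48873014) held 29.3 and 31.3 CPM in control. It held 25.4 and 27.7 CPM in P, 49.6 and 51.5 in L, 36.5 and 39.4 in H, 44.7 and 46.7 in S, 54.5 and 52.5 in cG, and 42.4 and 44.3 in Z. All libraries of L, H, S, cG and Z were above both control libraries, and both P libraries were below. The log2 fold change was 0.74 (SE 0.111, adjusted p = 1.88e-08) in L, 0.59 (SE 0.111) in S, 0.82 (SE 0.112, adjusted p = 5.11e-10) in cG, 0.52 (SE 0.116, adjusted p = 1.11e-03) in Z and -0.19 (SE 0.116, adjusted p = 0.26) in P. It was called in 14 of 17 stimulations. Of these, 10 held with each library left out and 3 with the mitochondrial share as a term. The 4 others were H (0.32), ScG (0.37), ZS (0.31) and PLH (0.35). They were lost, at 0.23 to 0.38, without control replicate 1 in all 4, control replicate 2 in H and ZS, or a replicate of the group (either of H, ScG 1, ZS 2, PLH 2).

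A pair of further Irgm1 peaks changed more than its start. A body peak 3190 bases into the gene (chr11:48867858-48868603) went from 0.328 and 0.482 CPM in control to 3.39 and 3.78 in L and 3.23 and 3.77 in PL. It was called in 15 stimulations, with 3.10 (SE 0.525, adjusted p = 6.03e-07) in L, and not in P (1.16, adjusted p = 0.20) or Z (1.54, adjusted p = 0.15). Of these 15 calls, 12 held with each library left out, and those in PH (1.62), LH (2.34) and ScG (2.18) did not. PH was lost without any one of its 4 libraries (both control and both PH replicates), at 1.39 to 1.93, LH without LH replicate 1 (1.70) and ScG without ScG replicate 2 (1.43). A flank peak past the Irgm1 end (chr11:48862866-48865174), chosen after its values were seen, held 3.39 and 4.15 CPM in control, 3.44 and 3.75 in P, and 14.9 and 14.2 in cG. It rose in every stimulation but P, from 0.95 (SE 0.245) in PH to 1.94 (SE 0.233) in cG, and only the call in Z was lost when a library was left out (0.96 without Z replicate 2).

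Igtp and Irgm2, whose promoters share sequence, had start sites that were called in few stimulations. The Igtp start-site peak (chr11:58199115-58199956) held 7.65 and 8.68 CPM in control, 11.3 and 12.7 in L, and 12.3 and 14.2 in cG. It was called in L (0.56, SE 0.204) and cG (0.69, SE 0.205), and neither call held with each library left out. In L any one of the 4 libraries (both control and both L replicates) ended it, at 0.47 to 0.66, and in cG control replicate 1 (0.61) or cG replicate 2 (0.58) did. The Irgm2 start-site peak (chr11:58214291-58215494) held 12.1 and 13.6 CPM in control and 19.3 and 18.6 in cG. It was called only in cG (0.56, SE 0.168), and not without control replicate 1 (0.48, adjusted p = 0.10). A low flank peak upstream of Igtp (chr11:58193449-58193683) had 11 counts in control and 0 in the P libraries. With a floor of 3 counts over the group, P was 5.06-fold lower, a value that takes the control counts as exact. The counting interval of the ratio of P to control was wider, from 0 to 0.289. The peak was called lower in P. That call was lost without control replicate 2 (adjusted p = 0.089), P replicate 1 (0.053) or P replicate 2 (0.069). Between the genes, 4674 bases upstream of the Irgm2 start, a flank peak (chr11:58210028-58210579) chosen after its values were seen went from 0.546 and 1.54 CPM in control to 3.47 and 3.38 in PcG (1.67, SE 0.458, adjusted p = 2.0e-03). It was called higher in 9 stimulations, and each of these calls was lost without control replicate 1 (0.75 to 1.14) and with the mitochondrial share as a term. A peak inside Irgm2 (chr11:58216844-58217267), chosen in the same way, went from 0.328 and 1.35 CPM to 2.36 and 2.58 in ZS (1.51, SE 0.542). Its 4 calls, in cG, ScG, ZS and ZcG, were all higher, and all were lost without control replicate 1 (0.81 to 0.87). A flank peak 9502 bases downstream of the Irgm2 start (chr11:58224233-58224725) fell in 6 mixtures, from 5.13 and 4.24 CPM in control to 2.44 and 0.713 in PL (-1.48, SE 0.384), and none of these calls held with each library left out. They were lost without PL replicate 2 (-0.91), PScG replicate 2 (-1.12) or ZScG replicate 1 (-0.91), each in its own group, and without control replicate 1 in PS, ScG, PLH and ZScG (-0.87 to -1.09). In ScG and PLH either replicate of the group also ended the call (-0.83 to -1.19), as did control replicate 2 in ScG (-1.14).

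Iigp1, the vacuole-loading effector, had the largest changes of all. Just past its higher-coordinate end a peak (chr18:60393002-60394350) was nearly closed in control, with 2 counts in 1 library and 0 in the other (0.218 and 0 CPM). It held 0.688 and 0.289 CPM in P, 5.30 and 6.90 in L, 2.80 and 3.71 in H, 5.95 and 3.38 in S, 7.56 and 7.59 in cG, and 2.10 and 2.20 in Z. Every stimulated library was above both control libraries, and the P libraries were far below those of any other stimulation. The ratio of counts to control was 74.0 (95% counting interval 20.2 to 615) in cG, 60.6 (16.6 to 504) in L, 45.2 (12.3 to 377) in S, 21.1 (5.43 to 180) in Z and 4.71 (1.07 to 43.0) in P. The fitted change was 6.08 (SE 0.596, adjusted p = 2.75e-17) in cG and 2.14 (SE 0.963, adjusted p = 0.10) in P. All 16 calls outside P held with each library left out and with the mitochondrial share as a term.

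Over the lower-coordinate end of Iigp1 a peak (chr18:60372957-60373687) held 0.437 and 0.386 CPM in control, 0.306 and 0.650 in P, 3.82 and 3.24 in L, and 4.95 and 3.25 in LH. Its libraries in P overlapped those of control, and all others were higher. It rose in 15 stimulations, by up to 3.30 (SE 0.519) in LH, and not in P (0.23, SE 0.712) or Z (1.27, SE 0.673). The calls in PH (1.63), PScG (1.95) and ZScG (2.31) were lost, at 1.04 to 1.86, without control replicate 2 (PH, PScG), control replicate 1 (PH) or a replicate of the group (PH 2, PScG 1, ZScG 2).

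The most open Iigp1 peak (chr18:60381135-60382964), inside the gene, was the single member called in both directions. It held 5.57 and 6.66 CPM in control, 3.44 and 3.54 in P, 18.6 and 17.4 in L, 11.7 and 15.1 in H, 15.4 and 12.3 in S, 15.0 and 17.9 in cG, and 9.18 and 7.45 in Z. P lay below both control libraries and the other 16 stimulations lay above both. The log2 fold change was -0.81 (SE 0.240, adjusted p = 7.14e-03) in P and 1.55 (SE 0.196, adjusted p = 2.38e-11) in L. The call in P was lost without control replicate 2 (-0.67, adjusted p = 0.12), with the mitochondrial share as a term (-0.76) and under total-count scaling (-0.49). The higher calls in PS (0.60), ZS (0.56) and ZScG (0.65) were lost, at 0.44 to 0.69, without control replicate 1 in all 3, control replicate 2 in ZS, or a replicate of the group (PS 2 and either of ZS and ZScG).

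**Figure D4:**
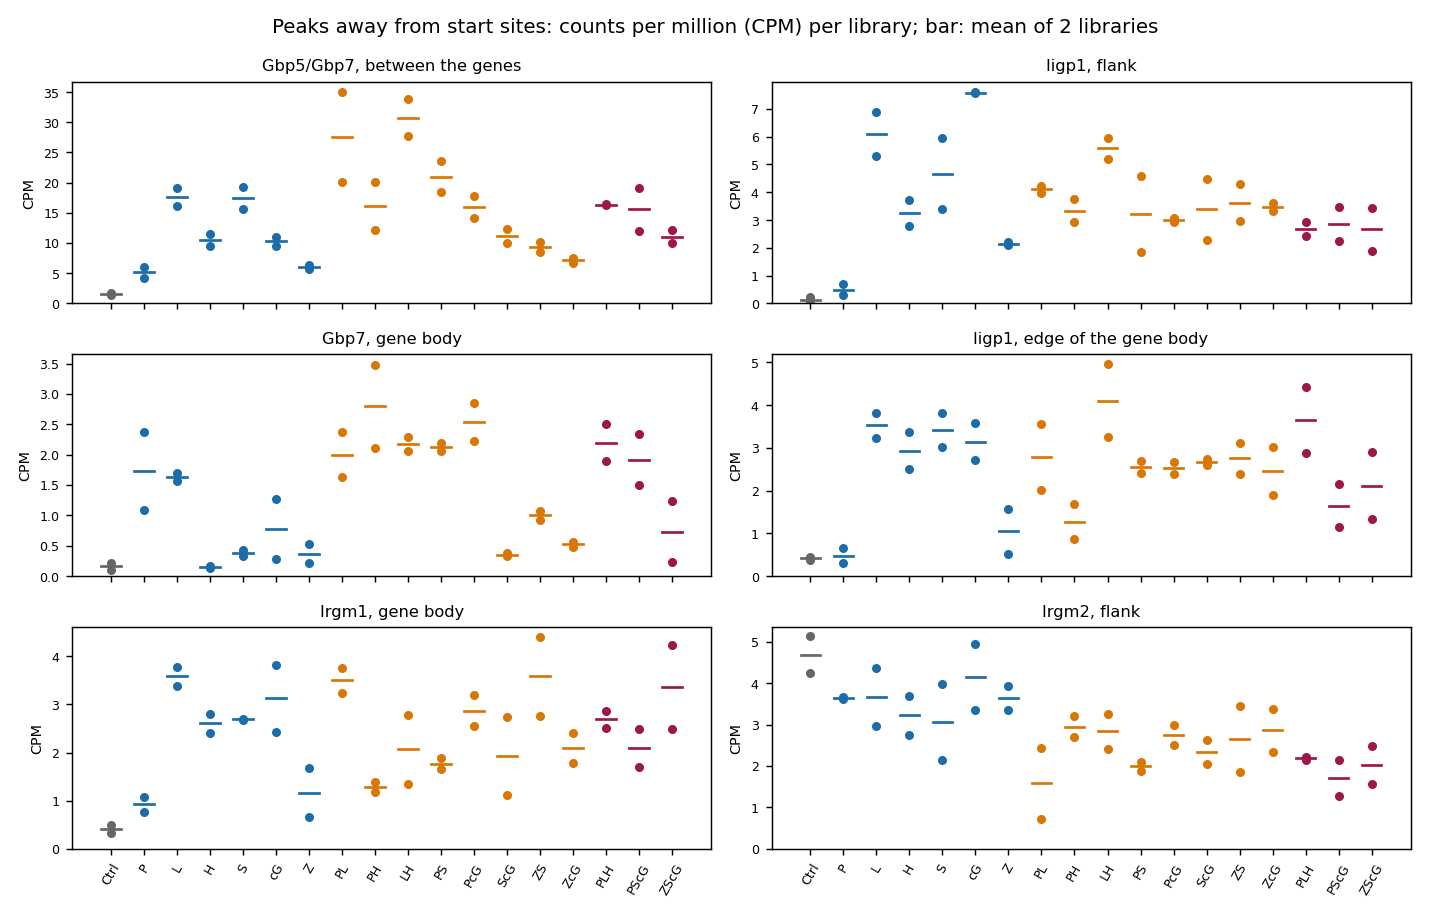
CPM of each library (points) and the mean of the 2 libraries (bars) in 18 groups for 6 peaks away from start sites. The peak past the Iigp1 end rises from 0.218 and 0 CPM in control to 7.56 and 7.59 in cG, and the Gbp7 body peak is at or above 1.08 CPM in P, L and every mixture with P or L.

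The pairs ask how ligands combined. Adding another ligand to P opened many of these peaks. PcG had 25 peaks higher than P (against 7.37% of all tested peaks), PS had 22 (9.32%), PL had 18 (4.16%) and PH had 8 (1.69%). The most open Iigp1 peak was 1.71 higher in PcG than in P (SE 0.208, adjusted p = 1.58e-11), 1.80 higher in PL (SE 0.214) and 1.41 higher in PS (SE 0.210). The Irgm1 start-site peak was 0.74 higher in PcG (SE 0.109, adjusted p = 3.05e-08) and the peak between Gbp5 and Gbp7 was 2.42 higher in PL (SE 0.221, adjusted p = 4.50e-13). None of P, PcG, PS, PL and PH is among the groups of high mitochondrial share.

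Adding P to the other ligand changed far fewer, and the shares of higher peaks were no larger than those of all peaks. PL differed from L at 0 peaks upward (against 0.765% of all peaks, with 0 in DESeq2) and 1 downward (0.366%), with 4 higher and 6 lower at an unadjusted p under 0.05. PS had 1 peak higher than S (2.44%) and 2 lower (0.494%). PH had 3 peaks higher than H (5.27%) and 2 lower (2.29%), and PcG had 3 higher than cG (5.59%) and 6 lower (3.52%). DESeq2 called fewer, with 0 lower for PL, 2 higher and 0 lower for PH, and 2 higher and 4 lower for PcG. The Gbp7 body peak was higher, with 4.17 (SE 0.666, adjusted p = 3.64e-07) in PH over H. It was also higher in PS than in S (2.45, adjusted p = 1.74e-03; 2.28 and adjusted p = 0.093 without S replicate 1) and in PcG than in cG (1.73; 1.00 without cG replicate 2 and 1.53 without PcG replicate 1). In the other direction the peak past the Iigp1 end was 1.33 lower on the log2 scale in PcG than in cG (-1.33, SE 0.309, adjusted p = 1.07e-03).

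In the pairs without P, the mixture seldom exceeded its stronger ligand, and most counts of higher peaks were near the shares of all peaks. LH had 0 peaks different from L (against 0.0603% of all peaks in either direction), with 9 at an unadjusted p under 0.05 in edgeR and 0 calls in DESeq2, and 3 higher than H (2.65%). ScG had 0 peaks different from S (0.581%), with 7 at an unadjusted p under 0.05 and 0 in DESeq2, and 1 higher (3.03%) and 6 lower (1.91%) than cG. ZS had 5 peaks higher than Z (6.63%) and 5 lower than S (1.01%). ZcG had 3 higher than Z (4.13%) and 2 lower than cG (1.05%). DESeq2 left 1 of each of LH over H, ZS below S and ZcG below cG. ScG, ZS and ZcG compare groups of unlike mitochondrial share with S or cG, and how far that share enters was not tested for these pairs apart from the term above. The Irgm1 start was lower in ScG than in cG (-0.45, SE 0.109, adjusted p = 4.35e-03), a call lost without cG replicate 1 (-0.42) or ScG replicate 2 (-0.40) and with the share as a term (-0.32, adjusted p = 0.69).

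A pair was next set against the sum of its ligands on the log2 scale (AB - A - B + control), so a negative value means less than additive. Of the 61 peaks, 24 were below additivity for ScG (against 7.52% of all tested peaks), 15 for LH (2.62%), 10 for ZS (2.61%) and 7 for ZcG (1.74%). Fewer were below for PS, with 4 (2.91%), PL, with 3 (4.2%), and PcG, with 2 (2.18%), and PL had 1 above (2.56%). PH had 0 in edgeR and in DESeq2 (1.55% of all peaks in either direction), with 11 at an unadjusted p under 0.05. In either direction the shares of all peaks were 6.77% in PL, 4.58% in PS and 3.27% in PcG, and without P 14.4% in ScG, 4.88% in LH, 3.43% in ZS and 2.49% in ZcG. Every such sum uses the control libraries, so the 8 interactions share them and are given side by side only.

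The largest departures were at the same few regions. The peak past the Iigp1 end gave -6.52 (SE 0.724, adjusted p = 1.35e-13) for ScG, -5.39 (SE 0.817) for ZcG, -4.99 (SE 0.769) for LH and -4.64 (SE 0.840) for ZS. These values rest on 2 control counts, which enter every sum. The peak between Gbp5 and Gbp7 gave -3.37 (SE 0.387, adjusted p = 5.55e-10) for ScG, -2.88 (SE 0.424) for ZS, -2.49 (SE 0.442) for ZcG and -1.96 (SE 0.385) for LH. The Gbp5 start gave -1.56 (SE 0.205) for ScG and -1.06 (SE 0.205) for LH, and the Irgm1 start gave -1.04 (SE 0.156) for ScG. With the mitochondrial share as a term the calls fell to 2 for ScG, 2 for LH, 2 for ZcG and 0 for each of PL, PS and PcG. Single libraries also moved them: LH fell to 8 without L replicate 1 or LH replicate 1 and to 9 without H replicate 1. PL fell from 4 to 0 without PL replicate 2, to 1 without L replicate 1 or control replicate 2 and to 2 without control replicate 1. PS fell from 4 to 0 without PS replicate 2, to 1 without P replicate 2 or control replicate 2, and to 2 without S replicate 1 or control replicate 1. PcG fell from 2 to 1 without control replicate 2, P replicate 1 or cG replicate 2. PH rose from 0 to 1 without control replicate 1, control replicate 2 or PH replicate 2.

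**Figure D5:**
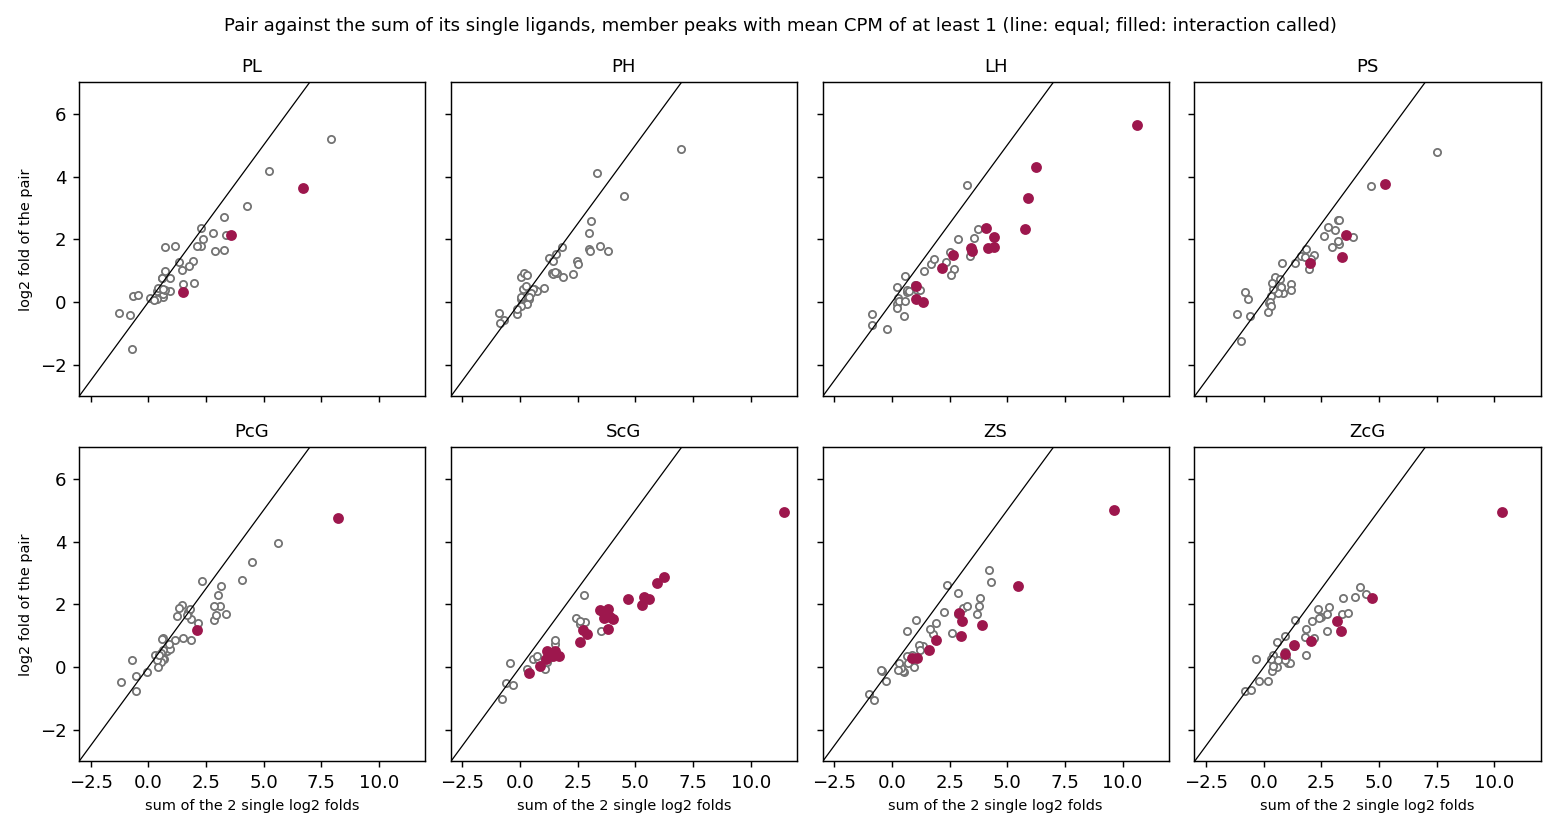
Fitted log2 fold change of each pair against control (vertical axis) and the sum of the log2 fold changes of its 2 ligands (horizontal axis) for the 44 peaks with a mean of at least 1 CPM, in 8 panels, with the line of equality. Filled points passed the interaction test. Both axes use the same control libraries. Points lie below the line for ScG, where 24 member peaks were called, and closer to it for PH, where 0 were.

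Few peaks were called between a triplet and its pairs, here as over all peaks. Over the 9 comparisons of a triplet with its pairs, 5 calls were made among 61 peaks each. PLH did not differ from PL (0 calls, against 0.0% of all peaks; 5 at an unadjusted p under 0.05; 0 in DESeq2) or PH (0 calls, 0.248%; 7 and 0), and was lower than LH at 1 peak (0.203%), the one between Gbp5 and Gbp7 (-0.90, SE 0.189, adjusted p = 7.91e-03). That call was lost without LH replicate 2 (-0.76), PLH replicate 1 (-0.89) or PLH replicate 2 (-0.92). PScG had 0 calls against PS (0.602%; 6 at an unadjusted p under 0.05; 0 in DESeq2) and PcG (0.411%; 3 and 0). Against ScG it was higher at 1 peak (2.11%), the Gbp7 body peak (2.40, SE 0.646), a call lost without PScG replicate 1 (2.06), ScG replicate 1 (2.50) or ScG replicate 2 (2.32). ZScG had 0 calls against ZS (0.0586%; 5 at an unadjusted p under 0.05; 0 in DESeq2) and ScG (0.774%; 10 and 0). Against ZcG it had 2 peaks higher (0.948%) and 1 lower (1.84%), the Irgm1 start (-0.44, SE 0.115), which was lost without ZScG replicate 2 (-0.37) or ZcG replicate 2 (-0.35). The total of 5 fell to 3 without ZScG replicate 2 or ZcG replicate 2.

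The start sites did not share a single profile. Over the 18 groups, the correlation of each start-site peak (for Iigp1 its most open peak) with the mean of the others was 0.914 for Irgm1, 0.894 for Igtp, 0.775 for Iigp1, 0.760 for Gbp2, 0.614 for Gbp5, 0.553 for Gbp3, 0.533 for Irgm2 and -0.014 for Gbp7. These are descriptions over 18 group means that share their libraries. Elsewhere in the genome, 9532 start-site peaks were compared with the mean profile of the member peaks listed above, each centred on its own mean. That profile includes the Iigp1 peak, which is no start site. Its range over the groups was 2.32 in log2 CPM, against 0.49 to 1.39 for the start sites, so it can weigh most in the mean. Most like the mean profile were the start-site peaks of Slfn9 (r = 0.931), Parp11 (0.888), Nod1 (0.884), Serpina3g (0.880) and Psmb10 (0.878). Ifi208, Mndal, Trex1, Ifi44 and Ifi209 followed (0.853 to 0.877). Nod1 encodes a cytosolic sensor of bacterial peptidoglycan, Psmb10 a subunit of the immunoproteasome and Trex1 a DNA exonuclease. The median over the 9532 was 0.0537, and 37 reached 0.8.

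The pathway that induces these genes was read at 15 genes, each through 1 peak at its start or end. In cG 8 of 15 were higher and 0 lower, in S 6 and 1, in L 5 and 1, in H 2 and 1, in P 1 and 0, and in Z 1 and 0. Of all tested peaks 4.16% were higher in Z, 5.23% in H, 11.1% in P, 11.3% in L, 11.6% in cG and 14.1% in S, so 1 of 15 in P or Z is near the share of all peaks. Their median log2 change was 0.31 in cG, 0.20 in S and -0.06 in P. Socs1, the feedback inhibitor of JAK kinases, rose in all 17 stimulations, by 1.06 (SE 0.095) in cG and 0.41 (SE 0.0962) in P. Ifnb1, the interferon-beta gene itself, rose by 2.56 (SE 0.327, adjusted p = 2.3e-11) in S and 1.68 (SE 0.346) in cG, and gave 0.02 in P and 0.45 in L, which did not pass the test. Irf1, which drives many guanylate-binding protein genes, rose by 0.62 (SE 0.120) in cG, 0.50 in S and 0.46 in L, and Stat2 by 0.60 (SE 0.117) in cG and 0.51 in L. With the mitochondrial share as a term, the calls of Irf1, Stat2 and Nlrc5 were lost in cG, L and S (adjusted p = 0.067 to 0.497), as was that of Socs1 in P (log2 0.22). Nlrc5, an activator of MHC class I genes, rose by 0.89 (SE 0.157) in cG. Ifngr1, a subunit of the interferon-gamma receptor, fell by 0.48 (SE 0.106) on the log2 scale in L, but gave -0.06 under total-count scaling.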

How the data were processed

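ATAC-seq libraries were made from 36 samples, 2 in each of 18 groups, and the authors deposited 1 table of read counts per peak for the series (119751 peaks, whole numbers, not normalized). Alignment and counting used Bowtie2 2.2.9, MACS2 (written as 1.4), bedtools and featureCounts on build mm10, per the submitters' processing notes. Their parameters, and whether duplicate reads or insertion sites were treated, are not given in the sources used here. 0 columns of the table were left unused.

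From the deposited counts, 1 mitochondrial peak was left out, 286 peaks were removed by filterByExpr (minimum count 10) and 119464 were tested. edgeR 4.0.16 in R 4.3.3 was fitted across all groups with TMM scaling (common dispersion 0.020, 18 residual degrees of freedom) and its quasi-likelihood test, with Benjamini-Hochberg adjustment over all tested peaks within each of 50 contrasts: 17 stimulations against control, 16 pairs against singles, 9 triplets against pairs and 8 interactions. A standard error is the absolute log2 fold change divided by the square root of F. CPM use TMM-scaled library sizes without the mitochondrial peak. Counting intervals are exact at 95% and, with no molecular identifiers, cover counting error only, and the floor is 3 counts per group. Scripts were tested on simulated data.

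Gene bodies came from a RefSeq gene table and starts and strands from a RefSeq promoter table (GRCm38.p6), which lacks Iigp1, and exons were not annotated. Named peaks were, for each gene, the start-site peak (for Iigp1 the peak of highest mean CPM) and the peak of highest mean CPM, the 5 highest and 3 lowest changes among called peaks of at least 1 CPM, and the peak of lowest p in each interaction. List genes were read at 1 peak overlapping or within 1 kb of the start, or of either gene end where the start was missing from the table. The members and lists were chosen with earlier results of these data known.

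Alternatives were scaling by total counts, offsets by abundance, DESeq2 1.42.0, no filter, the mitochondrial peak kept, a replicate block, each library left out (36 fits, with the dispersion trend of all libraries), and windows of the gene body alone or with 2 kb. The mitochondrial share as a term was chosen after seeing the data.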

Additional observations from a re-analysis of the deposited data

Results flagged for a closer look

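In 7 of the 8 pairs at least 1 member peak passed the test of the difference itself, whether the effect of one ligand is the same with and without the other (the interaction term in edgeR). The number of member peaks past the threshold was 24 for ScG, 15 for LH, 10 for ZS, 7 for ZcG, 4 for PL, 4 for PS and 2 for PcG. Over all tested peaks the shares were 14.4%, 4.88%, 3.43%, 2.49%, 6.77%, 4.58% and 3.27%, so the counts for PL and PcG lie near the shares of all peaks. With the mitochondrial share as a term 2 calls were made for each of ScG, LH and ZcG and 0 for each of PL, PS and PcG, and leaving out PL replicate 2 or PS replicate 2 took those pairs to 0.

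The peak with the lowest p in each of those pairs was as follows. Past the end of Iigp1 the departure from additivity was -6.52 on the log2 scale for ScG, -5.39 for ZcG and -4.99 for LH. Between Gbp5 and Gbp7 it was -2.88 for ZS. At the Gbp5 start it was -0.74 for PS and -0.95 for PcG. In PL the low flank peak upstream of Igtp gave 7.53, which rests on P libraries with 0 counts, depends on the prior count and is no bound. That call was lost without control replicate 2 (6.79), PL replicate 2 (6.14) or P replicate 2 (7.53, adjusted p = 0.061).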

How the results depend on the processing

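Counts below are member peaks called in either direction, given without the shares of all tested peaks in each setting. How far they follow a change in calls over all peaks was not tested. For results that changed, the cause was not tested, except that narrower windows and fewer libraries leave less to count. With the mitochondrial share as a term, chosen after seeing the data, the calls against control were 3 in P, 6 in L, 8 in H, 13 in S, 11 in cG, 15 in PL, 10 in PH, 15 in LH, 9 in PS, 9 in PcG, 15 in ZS, 10 in PLH and 8 in PScG, and the interactions 0 for PL, PS and PcG and 2 for LH, ScG and ZcG. At the flank peak between Igtp and Irgm2 (peak74365) that term turned the change to -0.045 in cG, -0.0094 in PS and -0.25 in PScG. Under total-count scaling the interactions were 40 for ScG, 26 for LH, 17 for ZcG, 15 for PL, 8 for PS, 7 for PcG and 3 for PH and the triplet total was 8. This scaling moved the median of all peaks by -0.06 to 0.42, and the Gbp7 start peak (peak24488) in L turned to 0.037. Over the gene bodies alone the calls were 5 in P, 11 in H, 17 in S, 21 in cG, 2 in Z, 15 in PL, 14 in PH, 15 in LH, 19 in PS, 18 in PcG, 15 in ScG, 18 in ZS, 18 in ZScG, 15 in PLH and 15 in PScG, and the interactions 15 for ScG, 5 for ZS, 3 for ZcG and 1 for each of PL, PS and PcG. With 2 kb flanks the PL interactions were 1, by DESeq2 the triplet total was 2, and with offsets by abundance the PH interactions were 1.

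With each library left out in turn the calls against control ran from 6 to 9 in P, 18 to 24 in L, 10 to 14 in H, 22 to 29 in S, 20 to 26 in cG, 5 to 8 in Z, 19 to 28 in PL, 13 to 18 in PH, 17 to 21 in LH, 23 to 27 in PS, 21 to 27 in PcG, 14 to 24 in ScG, 15 to 21 in ZS, 13 to 17 in ZcG, 21 to 28 in ZScG, 23 to 26 in PScG and 19 to 22 in PLH. Interactions ran from 18 to 25 for ScG, 8 to 14 for LH, 7 to 9 for ZS, 5 to 8 for ZcG, 0 to 5 for PL and PS, 1 to 3 for PcG and 0 to 1 for PH. The pair and triplet totals ran from 87 to 117 and 3 to 6. A group left with 1 library is assumed to vary like the others.

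With the replicate block the calls were 11 in P, 32 in cG and 25 in LH, and the other counts also stayed within 1.5 times. Same-numbered libraries of 153 pairs of groups deviated together at -0.040 to 0.030, with 0 above 0.1, so the numbers are not shown to pair libraries. Peaks under 1 CPM, 17 of 61, allow the least precision.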

Other observations

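Other GTPase genes of the same families were read at 1 peak each, for 14 of 16 listed genes (Gbp6 and F830016B08Rik had none). In L 7 were higher than control and 1 was lower, in S 7 and 0, in cG 6 and 0, in H 4 and 0, in P 0 and 3, and in Z 0 and 0 in edgeR's quasi-likelihood test. Of all tested peaks 11.3% were higher in L, 14.1% in S, 11.6% in cG, 5.23% in H and 4.16% in Z, and 9.41% were lower in P. Gbp10, another guanylate-binding protein gene, rose from 2.18 and 2.80 CPM in control to 8.55 and 10.3 in L (log2 1.91, SE 0.286, adjusted p = 1.58e-08) and to 6.13 and 7.59 in cG. Of its 4 calls among the 6 single ligands, 2 held with each library left out. Its sequence was not compared with that of other genes of the family on chromosome 5, so whether counts are shared was not tested. Tgtp1, an immunity-related GTPase gene next to the near copy Tgtp2, rose from 0.655 and 1.83 CPM to 4.31 and 5.12 in L (1.89, SE 0.403), a call lost with the mitochondrial share as a term (2.00, adjusted p = 0.24). Its counts may be shared with Tgtp2 and are uncertain.

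A pair of the listed genes that were lower in P is given here, chosen after their values were seen. Gm5431 held 27.0 and 28.6 CPM in control and 16.9 and 16.6 in P (-0.73, SE 0.136, adjusted p = 6.3e-06). Gm4951, on the chromosome of Iigp1, held 21.3 and 16.2 CPM in control, 12.5 and 11.1 in P, and 31.4 and 36.5 in cG. Its change was 0.86 (SE 0.133) in cG and -0.66 (SE 0.146) in P, the last lost without control replicate 1 (-0.46), with the mitochondrial share as a term (-0.66, adjusted p = 0.065) and under total-count scaling (-0.33).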
